A study of Medicago truncatula with 9 samples.

Results

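The genes described here are 113 of the 36695 loci of Medicago truncatula, a model legume, whose deposited descriptions name a step of flavonoid, isoflavonoid or proanthocyanidin synthesis. They were picked by words in those descriptions (chalcone, flavon, isoflav, flavanone, dihydroflavonol, anthocyanidin or leucoanthocyan), and no measured value is part of that rule. The rule was set with earlier results of these data known. A further 33 loci that match the words but are described as cytochrome P450 or glucosyltransferase were left out and are counted separately near the end. Levels are FPKM (fragment numbers corrected for transcript length and library size), summed over the transcript models of a locus. Only 12 of the 113 loci had more than 1 model.

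RNA was sequenced from dried, stored mature seeds of 3 genotypes: the wild type R108 and 2 mutants in the R108 background, hsfa9-1 (line NF10440) and hsfa9-2 (line NF13157). Each mutant is a single line with a Tnt1 retrotransposon insertion, and no other treatment separated the groups. HSFA9 is a heat stress transcription factor that is known for its activity in maturing seeds. Each genotype had 3 libraries, and each library was made from 50 seeds taken from different plants. Since HSFA9 is named in no description, the targeted gene gave no check of the mutant labels.

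Flavonoid synthesis starts with chalcone synthase, which builds a chalcone from coumaroyl-CoA and malonyl-CoA. Chalcone isomerase closes it to a flavanone, and flavanone 3-hydroxylase makes a dihydroflavonol. Flavonol synthase turns dihydroflavonols into flavonols, while dihydroflavonol reductase and then leucoanthocyanidin dioxygenase lead to anthocyanidins. Leucoanthocyanidin reductase and anthocyanidin reductase make the flavan-3-ol units of proanthocyanidins, the tannins that colour and protect seed coats, and in legumes a separate branch through 2-hydroxyisoflavanone dehydratase gives isoflavones.

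Between 922801 and 981285 FPKM were listed per library. Relative depth, read from the steps between low FPKM values, lay between 0.988 and 1.01 of the mean, and absolute depth is unknown. Against the other 2 libraries of its genotype, a library differed with an SD of 0.223 to 0.261 on the log2 scale over the tested loci, except for hsfa9-2 replicates 1 and 3 at 0.285 and 0.292, and results that rest on either are given without it as well. The mature seed markers (oleosins, vicilins, legumins, late embryogenesis abundant proteins and dehydrins) summed to 63136 to 68408 FPKM in R108, compared with 73194 to 86375 in hsfa9-1 and 88059 to 104418 in hsfa9-2, and 8 of these 103 loci, all of them late embryogenesis abundant proteins, were listed at 0 throughout. Single loci went both ways: of the 63 tested, 25 rose and 24 fell in hsfa9-1, and 31 rose and 23 fell in hsfa9-2. Genes of lignin synthesis, as a marker of lignified coat or pod tissue, summed to 307 to 343 FPKM in R108, against 564 to 611 in hsfa9-1 and 562 to 622 in hsfa9-2 over 49 loci, of which 19 were tested, 6 rose and 9 fell in hsfa9-1, 6 rose and 8 fell in hsfa9-2, and 8 (laccases, cinnamoyl-CoA reductases, a caffeoyl-CoA methyltransferase and a cinnamyl alcohol dehydrogenase) were at 0 throughout. Nodule-named loci summed to 674 to 879 FPKM in R108, compared with 2072 to 2360 in hsfa9-1 and 2290 to 3803 in hsfa9-2, nearly all of it from glycine-rich peptide loci Medtr5g084270 and Medtr5g084320, and 2 of the 32 loci were at 0 throughout. Leghemoglobins, which define nodules, were below 1 FPKM in every R108 library except for Medtr5g080440 at 4.38 to 7.02 FPKM, and this locus was at 5.08 to 5.82 FPKM in hsfa9-1 and 7.81 to 18.1 in hsfa9-2. Green tissue markers summed to 3987 to 4339, 3137 to 3773 and 3049 to 3272 FPKM in the same order, with 3 of 119 loci at 0 throughout. Of the 78 tested, 20 rose and 25 fell in hsfa9-1, and 18 rose and 37 fell in hsfa9-2. Of the 8 tested nodule-named loci, 6 rose in hsfa9-1 and 7 in hsfa9-2, and 0 fell. Over all tested loci, 27.6% were called higher and 31.9% lower in hsfa9-1, and 25.8% and 36.5% in hsfa9-2. The part of these lists in the results was not tested, and in bulk seeds fewer cells of a type and less RNA per cell cannot be told apart.

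The flavonoid loci took up little of the seed transcriptome in R108 and several times more in both mutants, and 2 loci made up most of that gain. Their summed level was 450, 494 and 498 FPKM in the R108 libraries, 2065, 1964 and 2151 in hsfa9-1, and 2245, 2499 and 2603 in hsfa9-2. The means were 480.9 ± 26.6, 2060 ± 93.8 and 2449 ± 184 (SD, n = 3 each), so that the sums in the mutants were 4.28 and 5.09 times that of R108. Without a single flavonol synthase locus, Medtr4g093840, the sums were 458 ± 28.1, 920 ± 19.2 and 1046 ± 65.9 FPKM, which is 2.01 and 2.28 times the R108 level. As a share of all FPKM listed, the 113 loci held 0.0488% to 0.0518% in R108, against 0.213% to 0.224% in hsfa9-1 and 0.238% to 0.270% in hsfa9-2.

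Most of the loci were silent or close to it in mature seeds. At least 1 FPKM in at least 3 libraries was reached by 36 of the 113, and these were tested. The other 77 never exceeded 1.51 FPKM, and 13 of them were listed at 0 in every library. Of the 36, 21 held at least 1 FPKM in all 9 libraries, 5 passed only through their R108 libraries and 5 only through mutant libraries, so the loci of the last 2 kinds had to differ between groups to be tested at all.

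In hsfa9-1, 15 of the 36 tested loci rose and 11 fell against R108, where 59.5% of the 17508 tested loci of the genome were called and 27.6% were called higher and 31.9% lower. In hsfa9-2, 14 rose and 12 fell, beside 62.3% called over all tested loci, 25.8% higher and 36.5% lower. After centring each library on its median, higher calls over all loci outnumbered lower ones instead, with 5531 and 4888 in hsfa9-1 against 4828 and 5584 without centring, and 5634 and 5070 in hsfa9-2 against 4511 and 6391. As shares of the 36, the higher and lower calls were 41.7% and 30.6% in hsfa9-1 and 38.9% and 33.3% in hsfa9-2, with the 10 loci tested through 1 kind of library included. The median absolute log2 change of the 36 loci was 0.91 in hsfa9-1 and 0.77 in hsfa9-2 beside 0.39 and 0.42 over all tested loci, while the median signed change was 0.24 and 0.18 beside -0.04 and -0.10. A change of at least 2 on the log2 scale was called at 9 of the 36 loci in each mutant, 6 upward and 3 downward, beside 3.74% and 4.02% of all tested loci. Of these 9, 2 were tested through R108 alone and 3 through the mutants alone, so they had to differ, and nothing is read from the gap to the share over all loci. All log2 changes are differences of means of log2(FPKM + 1), which understates ratios at low FPKM.

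The mutants shared their direction at every locus called in both. There were 14 loci called higher in both and 11 called lower in both, beside 23.4% and 30% of all tested loci, and 0 were called in opposite directions, beside 0.08%. The comparisons share the R108 libraries, so these counts are not independent of each other. The 14 and 11 also include the 5 loci tested through mutant libraries alone and the 5 tested through R108 alone. Such loci had to differ to be tested, so nothing is read from the gap to the shares over all loci.

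**Figure D1:**
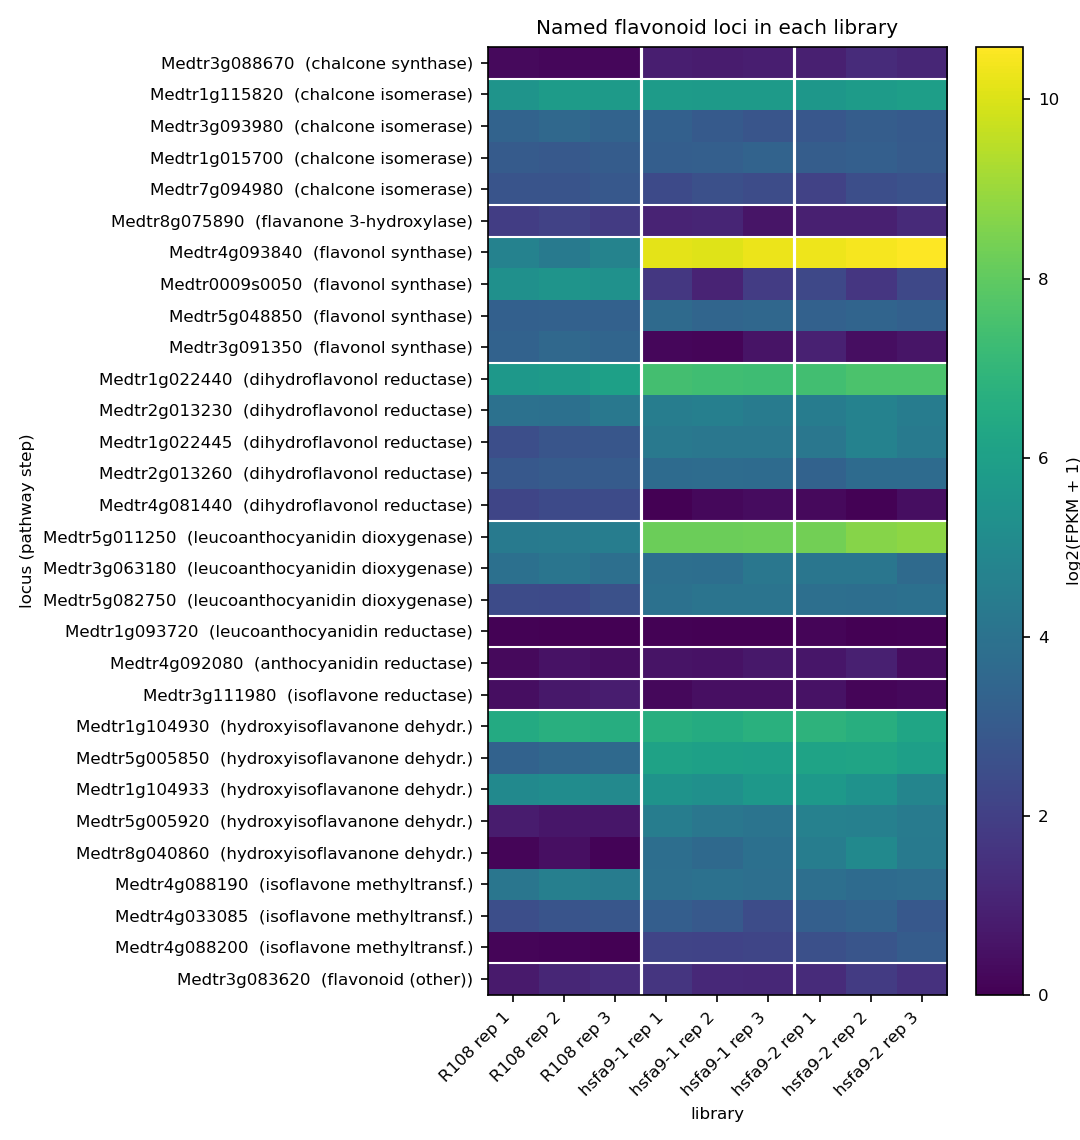
Level of the 30 named loci in each of the 9 libraries, as log2(FPKM + 1), with loci ordered by pathway step and white lines between genotypes and steps. Medtr4g093840 and Medtr5g011250 reach the highest levels in the 6 mutant libraries, while Medtr0009s0050, Medtr3g091350 and Medtr4g081440 are high in R108 alone.

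The entry step was almost absent. None of the 18 chalcone synthase loci reached 1 FPKM in 3 libraries, although 17 of them also carry the KEGG name chalcone synthase. Their sum was 1.46, 1.77 and 1.06 FPKM in R108, compared with 1.99, 1.53 and 1.89 in hsfa9-1, and 2.36, 2.93 and 2.64 in hsfa9-2. The highest of them, Medtr3g088670, was at 0.14 to 0.19 FPKM in R108, against 0.76 to 0.85 in hsfa9-1 and 0.91 to 1.44 in hsfa9-2. No 2 groups of libraries overlapped at this locus, but it was too low to be tested.

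Chalcone isomerase was present in all genotypes, at sums that overlapped. The 11 loci summed to 77.4 ± 6.78 FPKM in R108, compared with 75.5 ± 0.744 in hsfa9-1 and 74.0 ± 7.37 in hsfa9-2 (SD, n = 3). Most of this came from Medtr1g115820, which stood at 43.62, 55.81 and 53.45 FPKM in R108, against 54.6, 53.94 and 54.22 in hsfa9-1, and 47.52, 55.31 and 59.77 in hsfa9-2. The groups overlapped, and the log2 changes of 0.10 (95% interval -0.13 to 0.33, adjusted p = 0.448) and 0.09 (-0.14 to 0.32, adjusted p = 0.479) did not pass the test.

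Of the 4 other tested chalcone isomerase loci, 2 fell in both mutants, beside 30% of all tested loci called lower in both. Medtr2g072510 went from 2.44, 2.23 and 1.3 FPKM in R108 to 0.21 to 0.47 in hsfa9-1 and 0.13 to 0.21 in hsfa9-2 (log2 changes of -1.12 and -1.35, adjusted p = 2.46e-04 and 6.03e-05), and it is one of the loci tested through R108 alone. Medtr3g093980 fell from 9.9 ± 0.93 FPKM to 7.17 ± 1.36 and 6.99 ± 0.67 (log2 -0.43 and -0.45, adjusted p = 0.0159 and 0.0116). That call rests on the sum over its 3 models, because with the most abundant model alone the changes were -0.08 and -0.13 (adjusted p = 0.836 and 0.729), and without R108 replicate 2 or hsfa9-1 replicate 3 the adjusted p in hsfa9-1 was 0.064 or 0.0624. Median centring ended the call in hsfa9-2 (adjusted p = 0.0568).

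The remaining chalcone isomerase loci lay at the edge of the test. Medtr7g094980 was at 5.69 to 6.55 FPKM in R108, compared with 4.23 to 5.01 in hsfa9-1 and 3.3 to 5.28 in hsfa9-2. All mutant libraries were below all R108 libraries, yet the adjusted p was 0.0695 in hsfa9-1 and 0.0418 in hsfa9-2. In hsfa9-2 the call was lost when R108 replicate 1, 2 or 3, hsfa9-1 replicate 1 or 3, or hsfa9-2 replicate 1 was left out (adjusted p = 0.0697, 0.0643, 0.127, 0.0515, 0.0553 and 0.137), and under 5 other settings (adjusted p = 0.0514 to 0.183). In hsfa9-1 it was gained without hsfa9-2 replicate 1 or with only the 2 groups in the model (adjusted p = 0.018 and 0.0215). Medtr1g015700 was at 7.11 ± 0.286, 8.45 ± 0.764 and 7.71 ± 0.496 FPKM, with log2 changes of 0.22 and 0.10 (adjusted p = 0.0596 and 0.354), and it was called higher in both mutants after median centring (0.0161 and 0.0458), and in hsfa9-1 under 4 other settings (0.0263 to 0.048). Neither of these 2 loci carries the KEGG name chalcone isomerase.

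The 3 loci described as flavanone 3-hydroxylase alone were low. This enzyme commits flavanones to the dihydroflavonols, and the 16 loci given below as flavonol synthase carry the double description flavonol synthase/flavanone 3-hydroxylase, so the name of the enzyme is not limited to these 3. The 3 loci summed to 3.15 ± 0.345 FPKM in R108, against 1.16 ± 0.529 in hsfa9-1 and 1.36 ± 0.332 in hsfa9-2. The tested locus, Medtr8g075890, fell, with 2.8, 3.25 and 2.57 FPKM in R108 compared with 1.07, 1.13 and 0.51 in hsfa9-1, and 0.88, 0.88 and 1.42 in hsfa9-2. The mutant libraries all lay below the R108 libraries, and the log2 changes were -1.04 (adjusted p = 3.77e-04) and -0.92 (adjusted p = 8.29e-04).

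**Figure D2:**
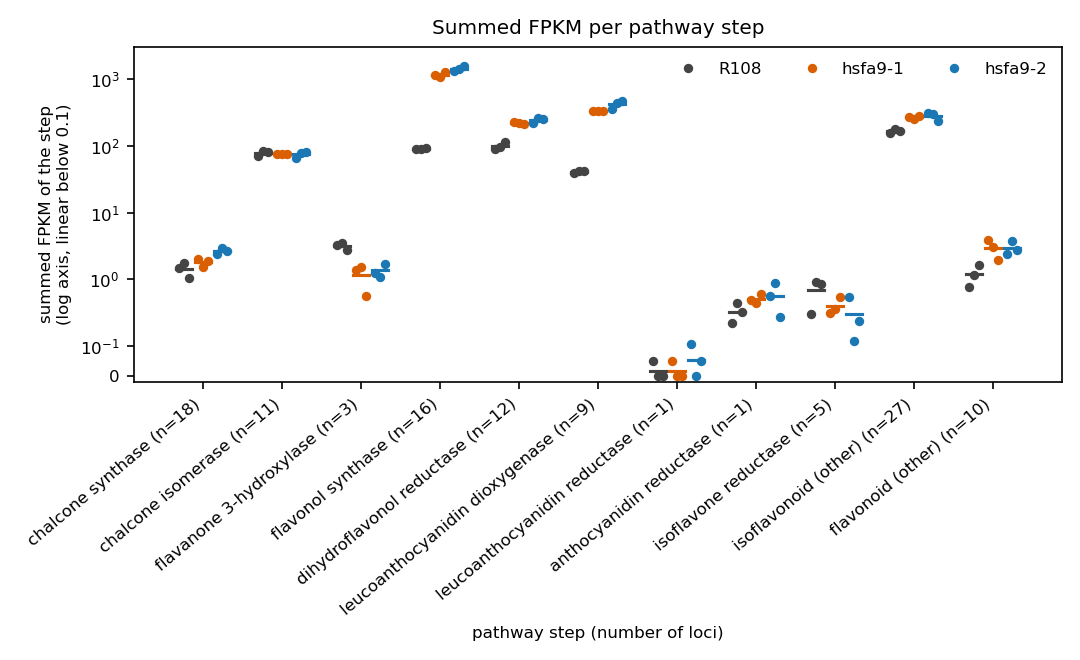
Summed FPKM of the loci of each pathway step, on a log axis that is linear below 0.1, with a point per library and a bar at the mean of the 3 libraries of each genotype. The flavonol synthase sum is near 90 FPKM in R108 and above 1000 in every mutant library, the chalcone isomerase sums overlap, and the loci described as leucoanthocyanidin reductase and anthocyanidin reductase stay below 1 FPKM.

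At the loci described as flavonol synthase/flavanone 3-hydroxylase, called flavonol synthase here, changes went in both directions, and the locus that led in R108 was not the one that led in the mutants. Of these 16 loci, 8 were tested, and 4 rose and 4 fell in hsfa9-1 while 3 rose and 4 fell in hsfa9-2. Over all tested loci, 27.6% were called higher and 31.9% lower in hsfa9-1, and 25.8% and 36.5% in hsfa9-2. Medtr3g091350 and Medtr3g091360 were tested through R108 alone and Medtr5g055900 through the mutants alone, so they had to differ to be tested. The step's sum was 89.28, 88.69 and 90.98 FPKM in R108, against 1152, 1086 and 1250 in hsfa9-1, and 1294, 1421 and 1558 in hsfa9-2. The means in the mutants were 13.0 and 15.9 times that of R108, and the groups did not overlap.

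That difference lay in a single locus. Medtr4g093840 was at 24.9, 18.91 and 25.46 FPKM in R108, compared with 1127.41, 1064.79 and 1228.08 in hsfa9-1, and at 1272.76, 1400.07 and 1536.58 in hsfa9-2. Every mutant library was far above every R108 library. The hsfa9-2 libraries all lay above the hsfa9-1 libraries, but the direct comparison of the mutants did not pass the test (adjusted p = 0.276). The log2 changes from R108 were 5.58 (SE 0.11, adjusted p = 8.08e-10) and 5.87 (SE 0.11, adjusted p = 6.77e-10). Among all 17508 tested loci these ranked as rise number 1 in hsfa9-1 and number 2 in hsfa9-2, and by level the locus moved from rank 6035 in R108 to 90 and 72. It held 21.3% to 28.0% of the step's FPKM in R108, against 97.9% to 98.2% in hsfa9-1 and 98.3% to 98.6% in hsfa9-2.

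The leading flavonol synthase of the wild type went the other way. Medtr0009s0050 was at 39.23, 44.06 and 40.48 FPKM in R108, compared with 2.29, 1.09 and 2.72 in hsfa9-1, and 3.96, 2.22 and 3.95 in hsfa9-2. All mutant libraries lay far below R108, with log2 changes of -3.84 (SE 0.22, adjusted p = 1.96e-07) and -3.30 (SE 0.22, adjusted p = 5.37e-07). Its share of the step was 43.9% to 49.7% in R108, at most 0.22% in hsfa9-1 and at most 0.31% in hsfa9-2. The 4 models of this locus had R108 means of 21.5, 14.3, 3.90 and 1.48 FPKM, and each had a lower mean in both mutants.

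A pair of loci with neighbouring identifiers fell in the same way. Medtr3g091350 was at 8.97, 11.03 and 9.81 FPKM in R108, against 0.15, 0.1 and 0.46 in hsfa9-1, and 0.98, 0.31 and 0.51 in hsfa9-2 (log2 changes of -3.15 and -2.79, adjusted p = 1.62e-07 and 3.53e-07). Medtr3g091360 fell from 2.14 ± 0.355 FPKM to 0.07 ± 0.0346 and 0.14 ± 0.201 (-1.55 and -1.47, adjusted p = 1.4e-05 and 1.85e-05). Both were tested only because of their R108 libraries. At both, the highest of the 6 mutant values was that of hsfa9-2 replicate 1.

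The other tested flavonol synthase loci were below 12 FPKM throughout. Medtr5g055680 rose from 1.60 ± 0.445 to 6.13 ± 0.67 and 5.66 ± 0.444 FPKM (log2 1.46 and 1.37). Medtr5g055900, tested through the mutant libraries alone, rose from 0.277 ± 0.00577 to 1.38 ± 0.174 and 1.09 ± 0.1 FPKM (0.90 and 0.71). Medtr5g055690, which has 4 genes between it and Medtr5g055900 in the gene order of RefSeq assembly MtrunA17r5.0-ANR, fell from 1.62 ± 0.178 to 0.837 ± 0.235 and 0.637 ± 0.373 FPKM (-0.52 and -0.71). Medtr5g048850 was at 8.52, 8.76 and 8.86 FPKM in R108, compared with 11.62, 9.87 and 10.68 in hsfa9-1, and 8.64, 9.58 and 8.54 in hsfa9-2. Only hsfa9-1 passed the test (log2 0.27, adjusted p = 0.0197), while in hsfa9-2 the change was 0.03 (-0.16 to 0.22, adjusted p = 0.787). The direct comparison of the mutants gave -0.24 (adjusted p = 0.246), so a difference between them was not shown. The hsfa9-1 call was lost without R108 replicate 1 (adjusted p = 0.0571), without hsfa9-1 replicate 1 (0.0828) or with the most abundant model alone (0.88). KEGG names both this locus and Medtr5g055680 leucoanthocyanidin dioxygenase, an enzyme of the same dioxygenase family.

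**Figure D3:**
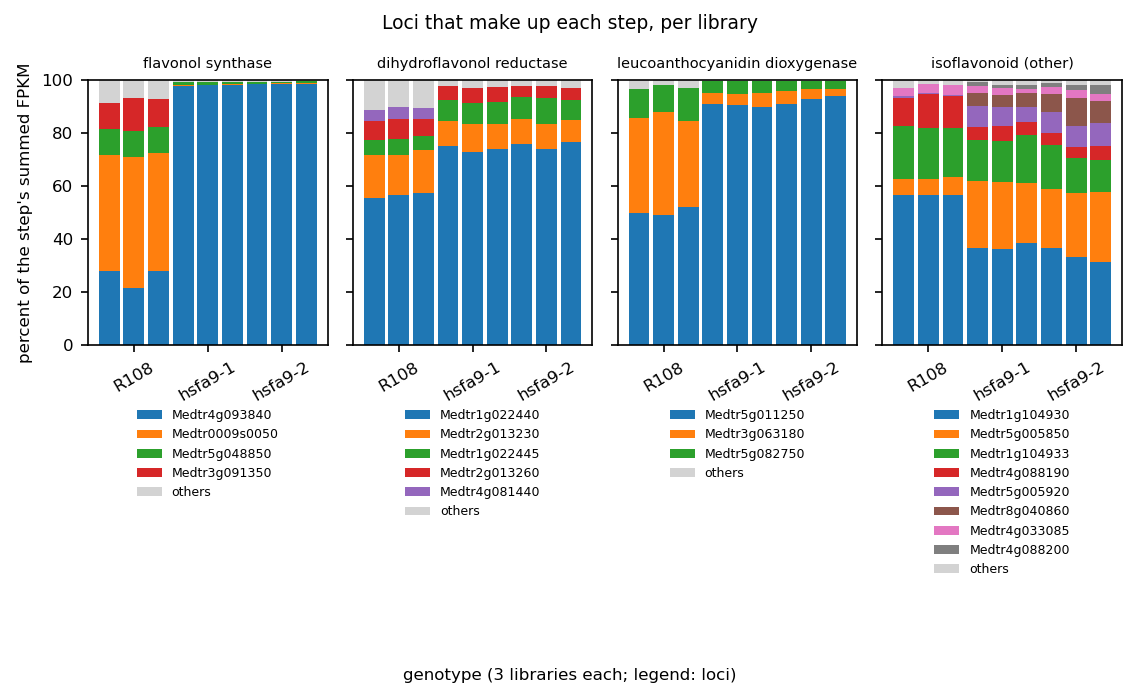
Percent of the summed FPKM of 4 steps that each named locus holds, with a stacked bar per library and the remaining loci of the step in grey. Medtr4g093840 fills nearly the whole of the flavonol synthase bars in the mutants, Medtr5g011250 takes 89.8% or more of leucoanthocyanidin dioxygenase there, and the order of the dihydroflavonol reductase loci stays similar.

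Dihydroflavonol reductase, the first step of the branch to anthocyanidins and proanthocyanidins, was at 88.49, 95.03 and 111.88 FPKM in R108 when its 12 loci were summed. The sum was 228.87, 218.87 and 212.66 in hsfa9-1 and 217.43, 259.13 and 251.46 in hsfa9-2, all above R108. Of the 8 tested loci, 4 rose and 3 fell in each mutant, beside 27.6% and 31.9% of all tested loci in hsfa9-1 and 25.8% and 36.5% in hsfa9-2. Medtr4g081440 and Medtr7g074880 were tested through R108 alone, so they had to differ to be tested.

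The highest of them, Medtr1g022440, rose from 48.94, 53.89 and 64.28 FPKM in R108 to 172.14, 159.66 and 157.65 in hsfa9-1 and 164.76, 191.49 and 192.77 in hsfa9-2. The groups did not overlap with R108, and the log2 changes were 1.54 (adjusted p = 4.65e-07) and 1.70 (adjusted p = 2.25e-07). Its direct neighbour in the RefSeq gene order, Medtr1g022445, rose from 5.59 ± 0.739 to 17.8 ± 0.493 and 20.4 ± 3.92 FPKM (1.51 and 1.69, adjusted p = 3.19e-06 and 1.31e-06). The changes of these neighbours were close in size, although their levels in FPKM were far apart. Both carry the KEGG name of dihydroflavonol 4-reductase. How reads were shared between similar copies is not given in the sources used here, so their separate values are uncertain to that extent.

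Another locus with that KEGG name fell. Medtr4g081440 was at 3.68, 4.21 and 4.38 FPKM in R108, listed at 0, 0.16 and 0.26 in hsfa9-1, and at 0.21, 0.05 and 0.32 in hsfa9-2. The log2 changes were -2.16 (adjusted p = 5.85e-07) and -2.10 (adjusted p = 6.92e-07), and it was tested through R108 alone.

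The other dihydroflavonol reductase loci carry other KEGG names. Medtr2g013230, Medtr2g013250 and Medtr2g013260 follow each other without a gene between them in the RefSeq gene order, and KEGG names all 3 anthocyanidin reductase. Medtr2g013230 rose from 15.6 ± 2.06 to 21.4 ± 1.51 and 22.2 ± 2.44 FPKM (log2 0.44 and 0.48, adjusted p = 0.00492 and 0.00257), and Medtr2g013260 from 6.99 ± 0.335 to 12.05 ± 0.182 and 10.9 ± 1.63 (0.71 and 0.57, adjusted p = 1.83e-04 and 7.87e-04). Medtr2g013250 was at 0.953 ± 0.396, 1.35 ± 0.266 and 1.47 ± 0.363 FPKM, and its log2 changes of 0.28 (-0.13 to 0.69) and 0.35 (-0.06 to 0.76) did not pass the test. Medtr7g117190, also named anthocyanidin reductase by KEGG, fell from 6.76 ± 0.663 to 3.12 ± 0.681 and 3.38 ± 0.449 FPKM (-0.92 and -0.83). Medtr7g074880, named vestitone reductase by KEGG after an enzyme of the isoflavonoid phytoalexins, fell from 1.76 ± 0.471 to 0.06 ± 0.06 and 0.05 ± 0.0436 FPKM (-1.37 and -1.38). This locus was tested through R108 alone.

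Leucoanthocyanidin dioxygenase, which makes anthocyanidins, was the second step with a large gain. Its 9 loci summed to 39.76, 41.51 and 41.25 FPKM in R108, against 327.01, 327.39 and 333.87 in hsfa9-1, and 349.38, 433.18 and 472.14 in hsfa9-2. The means in the mutants were 8.07 and 10.2 times that of R108.

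The gain came from Medtr5g011250, at 19.87, 20.29 and 21.5 FPKM in R108, compared with 297.72, 297.06 and 299.69 in hsfa9-1, and 317.99, 401.74 and 444.54 in hsfa9-2. The 3 genotypes did not overlap, and hsfa9-2 replicate 1 was the lowest of its group. The direct comparison of the mutants did not pass the test (adjusted p = 0.154). The log2 changes from R108 were 3.80 (SE 0.10, adjusted p = 2.66e-09) and 4.16 (SE 0.10, adjusted p = 1.38e-09). The locus held 48.9% to 52.1% of the step's FPKM in R108 and 89.8% to 94.2% in the mutants.

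The step's other tested loci were Medtr5g082750 and Medtr3g063180, both named flavonol synthase by KEGG. Medtr5g082750 rose from 4.32, 4.25 and 5.14 FPKM to 14.29, 15.82 and 15.78 in hsfa9-1 and 13.39, 13.0 and 14.21 in hsfa9-2 (1.55 and 1.39, adjusted p = 2e-07 and 4.16e-07). Medtr3g063180 was at 14.6 ± 1.44, 14.7 ± 2.38 and 15.2 ± 2.98 FPKM, with log2 changes between -0.34 and 0.33 and between -0.29 and 0.37 by their 95% intervals.

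The 2 loci described as enzymes that make the building blocks of proanthocyanidins were near 0 in every genotype, but other loci carry such a name in KEGG. The leucoanthocyanidin reductase locus Medtr1g093720 was listed at 0 in 5 of the 9 libraries and reached 0.11 FPKM at most. The anthocyanidin reductase locus Medtr4g092080 was at 0.22 to 0.44 FPKM in R108, against 0.44 to 0.6 in hsfa9-1 and 0.27 to 0.89 in hsfa9-2, so the groups overlapped. Neither was high enough to be tested. The 5 loci that KEGG names anthocyanidin reductase, which are Medtr4g092080 and the 4 described above under dihydroflavonol reductase, summed to 30.6 ± 2.73 FPKM in R108, compared with 38.45 ± 2.31 in hsfa9-1 and 38.5 ± 3.81 in hsfa9-2. Of the 4 tested, 2 rose and 1 fell in each mutant. Over all tested loci, 27.6% were called higher and 31.9% lower in hsfa9-1, and 25.8% and 36.5% in hsfa9-2. Which name applies to these loci, that of the description or that of KEGG, was not tested.

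**Figure D4:**
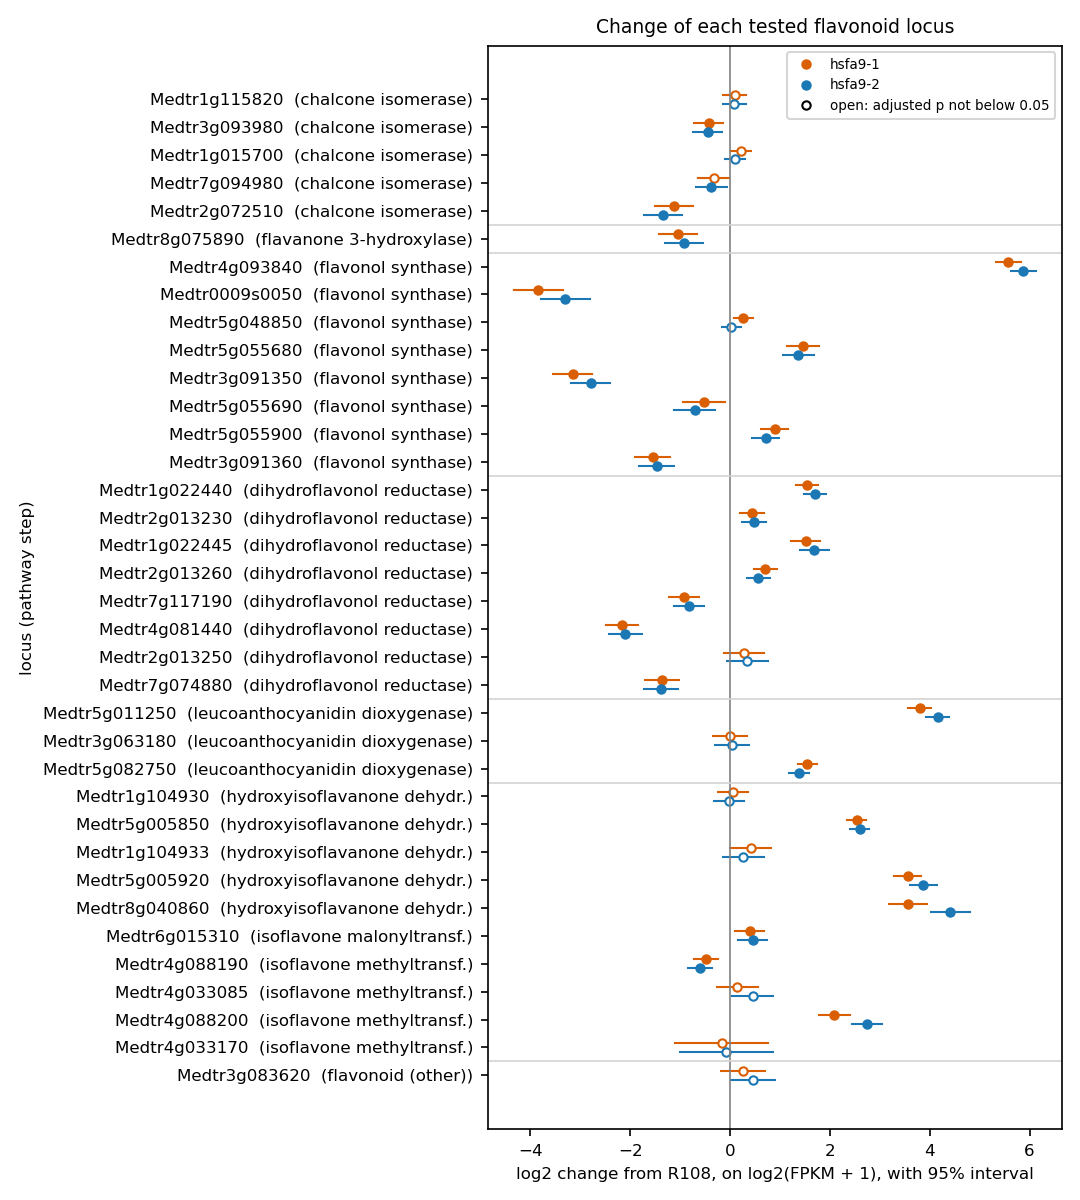
Log2 change of each of the 36 tested loci in hsfa9-1 and hsfa9-2 against R108, on log2(FPKM + 1), with 95% intervals and open points where the adjusted p was not below 0.05. The flavonol synthase and dihydroflavonol reductase loci spread to both sides of 0, and the points of both mutants lie close together at most loci.

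Isoflavonoid loci other than reductases had 27 members, of which 10 were tested, and 5 rose and 1 fell in each mutant. Over all tested loci, 27.6% were called higher and 31.9% lower in hsfa9-1, and 25.8% and 36.5% in hsfa9-2. Of the loci that rose, Medtr5g005920, Medtr8g040860, Medtr4g088200 and Medtr6g015310 were tested through mutant libraries alone. They had to differ to be tested, so nothing is read from this count. The isoflavone reductase step, late in the branch, had 5 loci below 1 FPKM, with Medtr3g111980 the highest at 0.12 to 0.79 FPKM and its groups overlapping. Its KEGG name is leucoanthocyanidin reductase.

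The main gain of this branch was in 2-hydroxyisoflavanone dehydratase, which forms the isoflavone itself. Its 8 loci summed to 139 ± 8.12 FPKM in R108, compared with 238 ± 14.4 in hsfa9-1 and 251 ± 41.8 in hsfa9-2. Of the 5 tested loci, 3 rose in each mutant while 0 fell. Over all tested loci, 27.6% were called higher and 31.9% lower in hsfa9-1, and 25.8% and 36.5% in hsfa9-2. Among the 3, Medtr5g005920 and Medtr8g040860 were tested through mutant libraries alone and had to differ, so nothing is read from this count. Medtr1g104930 was the highest of the 8 loci, at 88.84, 100.85 and 95.28 FPKM in R108, against 99.82, 90.55 and 105.16 in hsfa9-1, and 113.66, 99.23 and 73.66 in hsfa9-2. The groups overlapped, and its log2 changes of 0.05 (-0.25 to 0.35) and -0.01 (-0.31 to 0.29) did not pass the test.

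Medtr1g104933, with a nearby identifier, was at 31.78, 34.14 and 30.74 FPKM in R108, compared with 42.44, 38.34 and 49.29 in hsfa9-1, and 52.25, 40.62 and 27.6 in hsfa9-2. All hsfa9-1 libraries lay above R108 (log2 0.41, adjusted p = 0.0797), while hsfa9-2 overlapped (0.26, adjusted p = 0.24). Without hsfa9-2 replicate 3, which is the lowest library at both of these loci, Medtr1g104933 was called higher in both mutants (adjusted p = 0.0101 and 0.00651), and without hsfa9-2 replicate 1 in hsfa9-1 (0.0261). In hsfa9-1 it was also called after median centring, without the 100 most abundant loci and with only the 2 groups in the model (0.0311, 0.0487 and 0.0046).

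The 3 loci that rose were low or nearly silent in R108. Medtr5g005850 went from 9.19, 10.75 and 11.27 FPKM to 68.42, 63.5 and 62.78 in hsfa9-1 and 68.91, 72.63 and 62.04 in hsfa9-2 (log2 2.53 and 2.60, adjusted p = 8.26e-09 and 7.17e-09). Medtr5g005920 went from 0.73, 0.56 and 0.57 FPKM to 21.49, 17.38 and 15.77 in hsfa9-1 and 24.5, 23.61 and 20.22 in hsfa9-2 (3.56 and 3.87, adjusted p = 8.25e-09 and 5.41e-09). Medtr8g040860 went from 0.11, 0.34 and 0.06 FPKM to 13.01, 11.36 and 14.09 in hsfa9-1 and 21.66, 31.87 and 19.52 in hsfa9-2 (3.56 and 4.41, adjusted p = 6.48e-08 and 1.7e-08). At all 3, every mutant library was above every R108 library, and the last 2 were tested through the mutant libraries alone.

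The isoflavone methyltransferases, which cap hydroxyl groups of isoflavones, held a similar sum in all genotypes, at 28.0 ± 2.34, 25.5 ± 1.26 and 28.75 ± 1.02 FPKM over 13 loci, but the loci behind it shifted. Medtr4g088190 fell from 16.65, 22.94 and 20.5 FPKM to 13.68, 14.57 and 13.69 in hsfa9-1 and 13.47, 12.05 and 12.87 in hsfa9-2 (log2 -0.48 and -0.60, adjusted p = 0.00286 and 6.45e-04). Medtr4g088200 rose from 0.11, 0.06 and 0 FPKM to 3.51, 3.32 and 3.68 in hsfa9-1 and 5.02, 5.85 and 7.57 in hsfa9-2 (2.09 and 2.74, adjusted p = 5.24e-07 and 7.98e-08). In both cases the mutant libraries lay on 1 side of all R108 libraries, but Medtr4g088200 was tested through the mutant libraries alone. The identifier of the flavone synthase Medtr4g088195, counted further on, lies between theirs. The separate values of loci with 1 description depend on how reads were shared between them.

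The other tested methyltransferases did not pass the test. Medtr4g033085 was at 5.55 ± 0.713, 6.36 ± 1.76 and 8.02 ± 1.45 FPKM, with log2 changes of 0.14 (adjusted p = 0.526) and 0.45 (adjusted p = 0.0526). In hsfa9-2 it was called higher with the stricter filter, after median centring, without the 100 most abundant loci and with only the 2 groups in the model (adjusted p = 0.0457, 0.0163, 0.03 and 0.0255), and also without hsfa9-1 replicate 1 or 3 or hsfa9-2 replicate 3 (0.0381, 0.0199 and 0.027). Medtr4g033170 ranged from 0.27 to 3.28 FPKM, with an SD of 1.37 in R108, and its intervals of -1.10 to 0.76 and -1.01 to 0.86 are the widest among the 36 loci. Of the 6 isoflavone glucoside malonyltransferases, which attach malonyl groups to stored isoflavone glucosides, only Medtr6g015310 was tested, through the mutant libraries alone. It rose from 0.767 ± 0.133 to 1.32 ± 0.19 and 1.43 ± 0.197 FPKM (0.39 and 0.46, adjusted p = 0.0245 and 0.0108).

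Among the 10 loci with other flavonoid names, the flavonoid O-methyltransferase-like locus Medtr3g083620 was the one tested. It was at 1.15 ± 0.421, 1.58 ± 0.455 and 1.95 ± 0.559 FPKM with overlapping groups, and its log2 changes of 0.26 and 0.46 did not pass the test (adjusted p = 0.275 and 0.0659). In hsfa9-2 it was called without R108 replicate 3 or without hsfa9-2 replicate 1 (adjusted p = 0.0403 and 0.0379), after median centring (0.0273) and without the 100 most abundant loci (0.046). The flavonol 4'-sulfotransferase locus Medtr8g066280, mentioned after its values were seen, was listed at 0 in all R108 libraries, at 1.51, 1.47 and 0.4 FPKM in hsfa9-1 and at 0.76, 0.93 and 0.82 in hsfa9-2. The 6 flavonoid hydroxylases were at 0.11 FPKM or less.

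Between the mutants, 0 of the 36 loci passed the adjusted test in limma in either direction, where 1.12% of all tested loci were called, 0.491% higher and 0.628% lower in hsfa9-2 (86 and 110 loci, but 114 and 78 after median centring). At an unadjusted p under 0.05, 7 of the 36 loci differed, beside 2592 of all 17508. The closest was Medtr8g040860, higher in hsfa9-2 by 0.85 on the log2 scale (0.47 to 1.23, adjusted p = 0.0505), with every hsfa9-2 library above every hsfa9-1 library. It was called with the stricter filter, after median centring, after rescaling to equal totals and without the 100 most abundant loci (adjusted p = 0.04, 0.0347, 0.0439 and 0.0356), and also without hsfa9-2 replicate 3 (0.0461). Medtr4g088200 differed by 0.65 (adjusted p = 0.0631) and Medtr5g011250 by 0.37 (adjusted p = 0.154). Without hsfa9-2 replicate 1 these 2 were called, at 0.77 (adjusted p = 0.0311) and 0.50 (adjusted p = 0.0113). Medtr4g093840 differed by 0.30 (0.04 to 0.55, adjusted p = 0.276). Groups that did not overlap were found at 7 of the 36 loci between the mutants, beside 19.1% of all tested loci. Between R108 and each mutant they were found at 29 and 27 of the 36, beside 67.1% and 66.4%. The 29 and 27 include the 5 loci tested through R108 alone and the 5 tested through mutant libraries alone. These had to differ to be tested, so nothing is read from the gap to the shares over all loci.

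The genes that feed the pathway rose in part. Phenylalanine ammonia-lyase, the entry enzyme of phenylpropanoids, had 1 tested locus of 7, Medtr1g064090, at 3.53, 3.26 and 4.2 FPKM in R108, against 29.37, 23.28 and 27.81 in hsfa9-1 and 21.55, 24.97 and 30.25 in hsfa9-2. It rose by 2.58 and 2.50 on the log2 scale (adjusted p = 1.02e-07 and 1.11e-07), with no overlap. Cinnamate 4-hydroxylase had 1 tested locus of 2, which rose in both mutants (0.47 and 0.43). Its level was low, as the 2 loci summed to 1.71 to 2.39 FPKM in R108, against 2.4 to 3.88 in hsfa9-1 and 2.57 to 3.64 in hsfa9-2. Of 16 loci of 4-coumarate-CoA ligase, which makes the coumaroyl-CoA used by chalcone synthase, 8 were tested, and 4 rose and 2 fell in hsfa9-1 while 5 rose and 2 fell in hsfa9-2. Over all tested loci, 27.6% were called higher and 31.9% lower in hsfa9-1, and 25.8% and 36.5% in hsfa9-2.

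Among the loci left out for naming a cytochrome P450 or a glucosyltransferase, lower calls outnumbered higher ones. Over all tested loci, 31.9% were called lower and 27.6% higher in hsfa9-1, and 36.5% and 25.8% in hsfa9-2. After median centring, higher calls over all tested loci outnumbered lower ones instead. The calls of the loci left out were not recomputed that way. All 3 tested flavonoid cytochrome P450 loci of 8, described as flavone synthases, fell in both mutants, and their list summed to 167.5, 195.5 and 166.34 FPKM in R108, compared with 30.36, 31.06 and 28.7 in hsfa9-1, and 32.21, 19.16 and 19.31 in hsfa9-2. The highest, Medtr4g088170, fell from 135 ± 8.8 to 23.6 ± 1.7 and 18.0 ± 4.6 FPKM (log2 -2.46 and -2.87). Another of them, Medtr4g088160, is separated by 1 gene in the RefSeq order from the methyltransferase Medtr4g088190 described above. Of 25 flavonoid glucosyltransferases, which store flavonoids as glucosides, 16 were tested, and 10 fell in each mutant while 3 rose in hsfa9-1 and 1 in hsfa9-2. Medtr5g090580, described as a UDP-glucose flavonoid 3-O-glucosyltransferase, fell from 82.72, 97.99 and 85.93 FPKM to 4.47 to 5.25 in hsfa9-1 and 3.88 to 8.59 in hsfa9-2 (-3.95 and -3.79).

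Of 58 MATE transporters, a family that includes carriers of flavonoids into the vacuole, 23 were tested, and 7 rose and 5 fell in hsfa9-1 while 8 rose and 6 fell in hsfa9-2. These are 30.4% and 21.7%, and 34.8% and 26.1%, of the tested transporters, beside the 27.6% and 31.9%, and 25.8% and 36.5%, of all tested loci, so no pattern of the family is read from them. Medtr8g106670 rose most, from 0.157 ± 0.10 to 11.1 ± 0.56 and 11.2 ± 1 FPKM (3.39 in both), and what it carries is not annotated. At that level in R108 it was tested through the mutant libraries alone. Of 28 loci described as an anthocyanin acyltransferase or as any malonyltransferase, 7 were tested, and 5 rose in hsfa9-1 and 6 in hsfa9-2 with 0 falling. Over all tested loci, 27.6% and 25.8% were called higher. The list is not limited to anthocyanin, and the substrates were not tested. The tested locus of 4 described as transparent testa regulators, Medtr3g092840, a transparent testa glabra protein, fell from 10.63, 11.2 and 11.76 FPKM to 2.01, 2.31 and 2.66 in hsfa9-1 and 2.43, 2.1 and 1.79 in hsfa9-2 (-1.88 and -1.98, adjusted p = 3.29e-07 and 2.23e-07). Transparent testa glabra proteins are known in Arabidopsis as regulators of seed coat pigment.

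**Figure D5:**
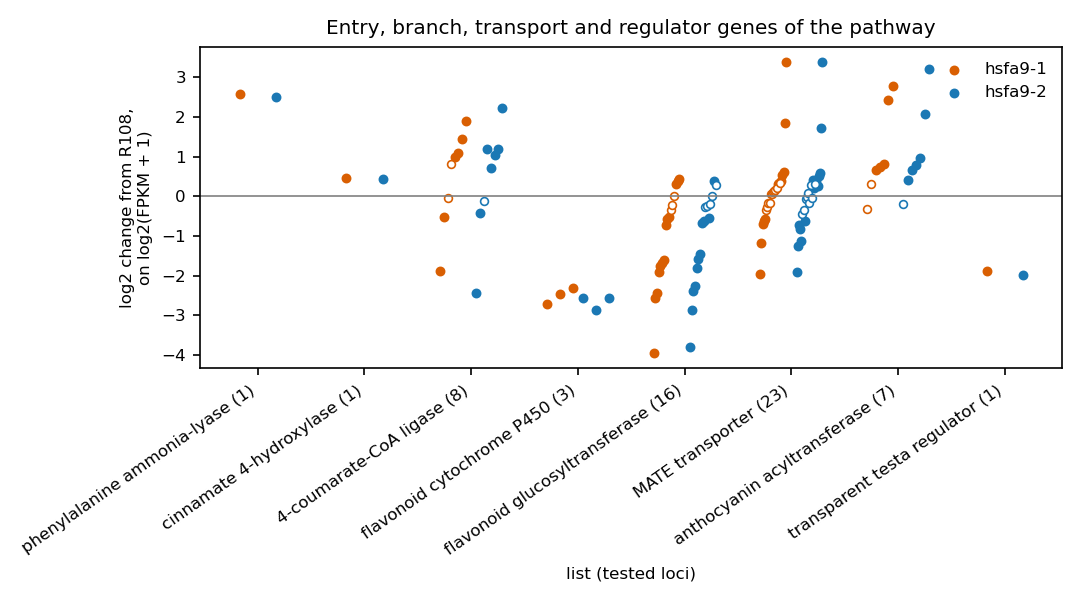
Log2 change of the tested loci of 8 other lists of the pathway in hsfa9-1 and hsfa9-2 against R108, on log2(FPKM + 1), with open points where the adjusted p was not below 0.05. The flavone synthases (cytochrome P450) and the transparent testa regulator lie below 0, phenylalanine ammonia-lyase lies above 0, and the MATE transporters spread to both sides. The list labelled anthocyanin acyltransferase was also picked by the word malonyltransferase alone.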

How the data were processed

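The authors deposited FPKM values with 2 decimals for 42631 transcript models in 9 libraries. HISAT, HISAT2, Bowtie2 and RSEM are listed in the submitters' processing notes with neither version nor role. The genome build, annotation and filters used are not given in these sources. FPKM were summed per locus. A locus was tested if at least 3 libraries reached 1 FPKM (17508 loci), as log2(FPKM + 1) in limma 3.58.1 (R 4.3.3, statmod 1.5.0), in 1 model of all 9 libraries with trend and robust moderation. Benjamini-Hochberg adjustment ran over all tested loci of a comparison, at 0.05. On simulated data the fit called 86% of loci changed by 1 and 99% of those changed by 2 on the log2 scale, and 8.42% of its calls were false, above the 0.05 aimed at. The simulation changed a small part of the loci, in hsfa9-1 alone and with normal noise. In the data 59.5% and 62.3% of tested loci were called, so these rates need not hold here. No count test was run. The depth estimate used 1351 to 3036 models per pair of libraries and erred by at most 0.458% on simulated libraries.

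The members, steps and lists were chosen with earlier results of these data known. Loci are named where their mean was at least 5 FPKM, where they led their step, or where they were called with a log2 change of at least 2, and the other tested members are given too, outside this rule. Protein accessions placed 29 of the 36 tested loci in the RefSeq gene order. The p-values measure the spread between lots of seeds from different plants.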

Additional observations from a re-analysis of the deposited data

How the results depend on the processing

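Over 2235 recomputed log2 changes of the named loci, 2161 kept their side of the threshold, 29 lost their call and 45 gained one. Of the values called in the main or the recomputed fit, 0 changed sign. Some uncalled values did change sign, such as Medtr1g104930 in hsfa9-2, which ranged from -0.15 to 0.16. Each left-out library entered this total both with and without the tested loci held fixed. The log2 changes were the same in both, so the 2235 values are not all separate. With at least 5 FPKM required, 25 flavonoid loci stayed in the test, and 5, 6 and 5 were called lower in hsfa9-1, in hsfa9-2 and in both, against 11, 12 and 11, since low loci were no longer tested. By that filter, median centring, rescaling to equal totals or leaving out the 100 most abundant loci, 1 locus (Medtr8g040860) was called higher in hsfa9-2 than in hsfa9-1, and 1 (Medtr4g088200) without trend and robust moderation. Median centring moved the median change of all loci from -0.04 to 0.03 in hsfa9-1 and from -0.10 to 0.03 in hsfa9-2.

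Leaving out each library in turn gave 13 to 16 loci higher and 4 to 12 lower in hsfa9-1, 13 to 16 higher and 6 to 12 lower in hsfa9-2, and 13 to 15 higher and 4 to 11 lower in both. The low ends, 5, 4 and 5 lower in hsfa9-1, 6 each in hsfa9-2, and 5, 4 and 5 in both, came without R108 replicate 1, 2 or 3, when loci that need all 3 R108 libraries are no longer tested and 31 remain. With the tested loci held fixed, an alternative chosen after seeing the data, the lower counts were 10 to 12, 11 to 12 and 10 to 11. Higher calls of hsfa9-2 over hsfa9-1 ranged from 0 to 2, with 2 without hsfa9-2 replicate 1 and 1 without hsfa9-2 replicate 3.

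The replicate block left the counts at 15 and 11 in hsfa9-1, 14 and 12 in hsfa9-2, and 0 between the mutants, and it changed no call of a named locus. Same-numbered libraries shared deviations with correlations of -0.125 to 0.096, and 2 of 9 libraries correlated best with their own number, so the numbers do not pair the samples. Over all loci, hsfa9-2 against hsfa9-1 gave 86 higher and 110 lower calls, but 53 and 51 with only these groups in the model, 58 and 60 with the most abundant model per locus, 64 and 62 with no filter, and 75 and 70 with the replicate block. Leaving out a library gave 47 to 129 higher and 36 to 192 lower, with 129 and 192 without hsfa9-2 replicate 1 and 47 and 36 without hsfa9-1 replicate 2, and each of the 9 moved at least 1 of the counts by over 1.5 times. Without counts, absolute depth and its error at low FPKM are unknown.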
